A study of Mus musculus with 3 samples.

Results

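The genes described here are 40 genes of glucose breakdown, out of 19621 genes in the count tables. They were chosen by name: 2 glucose transporters, 14 glycolytic enzymes, 2 lactate dehydrogenase subunits, 4 genes of the pyruvate dehydrogenase complex, 15 genes of the citric acid cycle and 3 of the malate-aspartate shuttle. All 40 had at least 1 count, and 29 passed the filter on low counts behind the tests. Glycolysis splits glucose into pyruvate in the cytosol and yields a little ATP. Lactate dehydrogenase exchanges pyruvate with lactate, and pyruvate dehydrogenase feeds pyruvate into the citric acid cycle in mitochondria, which collects electrons for ATP synthesis. The malate-aspartate shuttle carries the electrons that glycolysis gains into mitochondria. In the brain, astrocytes are known for active glycolysis and neurons for their reliance on mitochondrial ATP.

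Transcripts with a poly(A) tail were caught on dense arrays of barcoded spots placed under 3 coronal sections of main olfactory bulb, the brain's first station for smell, in the strain C57BL/6J at 12 weeks of age. Every section holds 9 regions, which are the groups compared. From outside to inside they are the olfactory nerve layer, the glomerular layer, the external plexiform layer, the mitral layer, the internal plexiform layer, the external and the internal granule cell layers, the ependymal cell zone and, at the core, the rostral migratory system. No treatment or mutation is labelled, and all groups share the strain and the age. The labels do not say whether the sections came from different animals, so p-values measure the spread between these sums, which may be technical.

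The sections held 344372, 650890 and 505710 counts, and the 27 sums of 1 region in 1 section ranged between 1456 and 182699 counts. Levels are CPM, the counts of a gene scaled to a common total for each sum, given as mean ± SD over the 3 sections. They are not divided by transcript length, so they compare 1 gene between regions and not genes with each other. A spot can hold parts of several cells, and fewer cells of a type and less RNA per cell cannot be told apart. Of the tested marker genes, 3 of 3 for olfactory sensory axons were higher in the olfactory nerve layer than in the other regions, 5 of 5 for mitral and tufted cells were higher in the mitral layer, and 4 of 8 for granule cells were higher in the internal granule cell layer. Section 1 stood apart before any region was compared. Over 1996 tested genes, Pearson's r of log2(CPM + 1) was 0.43 between sections 1 and 2 and 0.46 between sections 1 and 3, against 0.97 between sections 2 and 3.

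Glycolytic transcripts were much higher in section 1 than in the other sections, and those of lactate dehydrogenase and the malate-aspartate shuttle were also higher. The genes of the citric acid cycle differed less. This contrast was chosen after its values were seen, and with 1 section on 1 side it has no replicate and is a description. Gapdh, which oxidises glyceraldehyde 3-phosphate, stood at 749.5 CPM in section 1 against 149 and 175 CPM in sections 2 and 3. Aldoa, the fructose-bisphosphate aldolase of most tissues, had 3021 CPM in section 1 against 1004 and 1018 CPM in the others. The neuronal enolase gene Eno2 had 1502 CPM in section 1 against 357 and 490.2 CPM, and the pyruvate kinase gene Pkm had 1708 CPM against 597 and 628 CPM. Each of these 4 genes was higher in section 1 than in both other sections in 9 of 9 regions.

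Summed over the 14 glycolytic genes, section 1 held 10011 CPM against 3887 and 4101 CPM in sections 2 and 3. The 2 lactate dehydrogenase subunits summed to 1720 CPM in section 1 against 904 and 907 CPM. The 3 shuttle genes summed to 2118 CPM against 1225 and 1142 CPM. The 15 genes of the citric acid cycle summed to 2844 CPM in section 1 against 2409 and 2363 CPM, and the 4 genes of pyruvate dehydrogenase to 630.4 CPM against 644 and 648 CPM. Among genes that passed the filter, 5 of 12 glycolytic genes (Gapdh, Eno2, Aldoa, Pkm and Pfkl), 1 of 10 citric acid cycle genes (Idh3g, a subunit of NAD-dependent isocitrate dehydrogenase) and 1 of 3 shuttle genes (Got2, the mitochondrial aspartate transaminase) were at least 2-fold higher in section 1 than in each other section. That is 7 of the 29 tested members, against 14.1% of all tested genes. The median log2 ratio of section 1 to the mean of sections 2 and 3 was 1.05 for glycolysis. It was 1.04 for the 3 shuttle genes and 0.82 for the 2 lactate dehydrogenase subunits. The median was 0.26 for pyruvate dehydrogenase, 0.17 for the citric acid cycle and 0.16 for all 1996 tested genes. Among tested members, the lowest ratios of section 1 to the mean of sections 2 and 3 were those of Sucla2, the ATP-forming subunit of succinyl-CoA ligase, at 0.598, and Pfkm, at 0.796. Of members that did not pass the filter, Sdhc had 0.289 (11 counts in section 1 against 76 and 52) and Dld 0.392 (17 against 79 and 65). Because section 1 sets the mean of most glycolytic genes, values by section are given below for called members and the 2 with most counts.

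**Figure D1:**
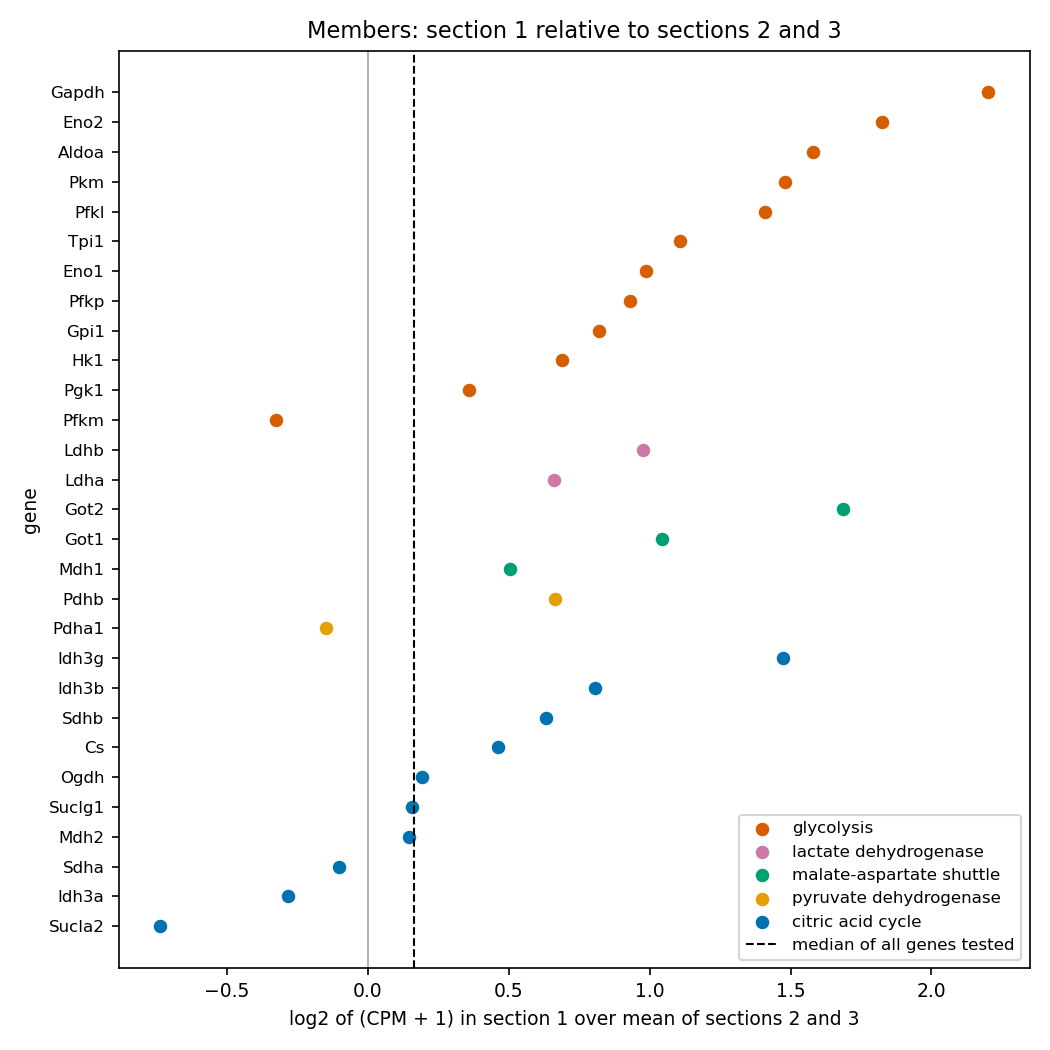
Each point is a tested member, placed on the horizontal axis by the log2 ratio of CPM + 1 in section 1 to the mean of sections 2 and 3, and coloured by its role. The dashed line marks the median of all tested genes, 0.16, and the glycolytic genes lie mostly to its right, with a median of 1.05 and Gapdh farthest out.

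Several of these genes have near-identical copies in the genome, and their counts are uncertain because no source used here says how reads were shared among copies. Gapdh itself had 442 counts over all sections, while 84 of its copies, mostly processed pseudogenes led by Gm13394, had 1766. In section 1 the gene had 258 counts against 1227 on 83 copies, in section 2 it had 96 against 297 on 46 copies, and in section 3 it had 88 against 242 on 38 copies. Gene and copies together reached 4314 CPM in section 1 against 609.6 and 658 CPM in sections 2 and 3. Pgk1, phosphoglycerate kinase, had 411 counts and its copy Pgk1-rs7 had 518. Eno1, the enolase of most tissues, had 302 counts and its copies 270, led by Eno1b. Pgam1, phosphoglycerate mutase, had 87 counts and its copies 17. Adding copies to their gene changed the number of members called in 0 of the 11 comparisons between regions.

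**Figure D2:**
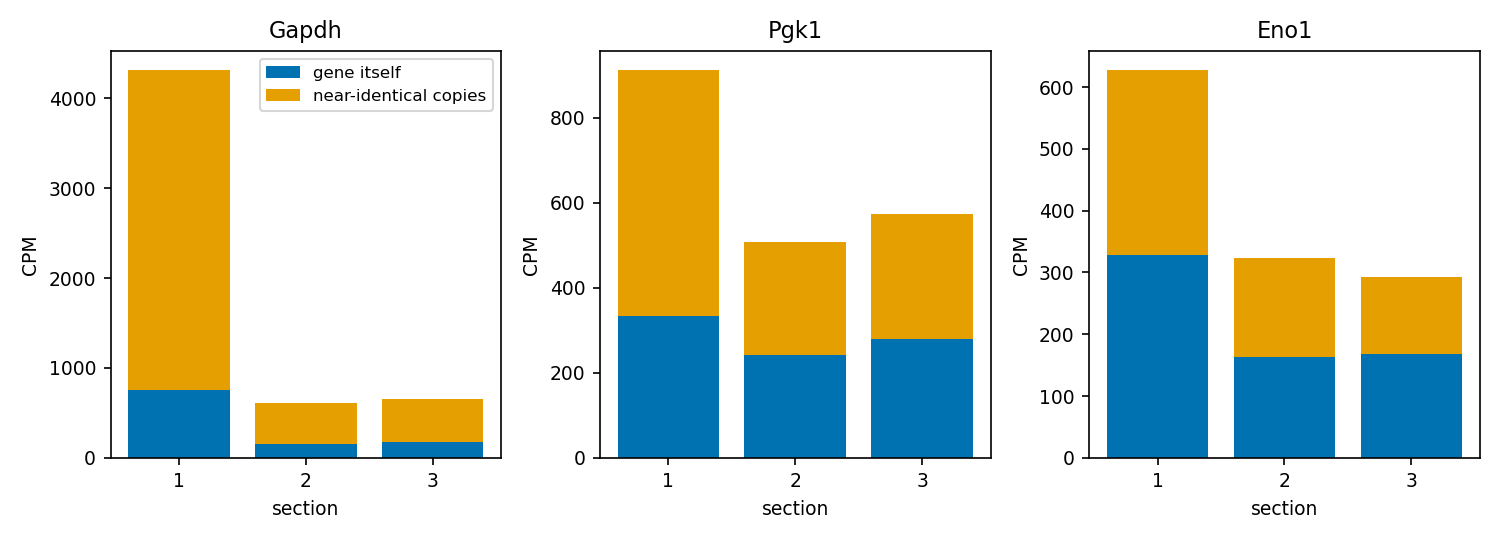
Bars give, for each section, the CPM of Gapdh, Pgk1 and Eno1 (lower part) and of their near-identical copies (upper part, stacked). Copies hold the larger part for Gapdh in each section, with 1227 counts on copies against 258 on the gene in section 1.

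Few of these genes passed a test between regions. Each region was compared with the mean of the other 8, and 2 further comparisons set the external plexiform layer and the mitral layer against the mean of both granule cell layers. In each comparison the 29 members were tested among the 1996 genes by edgeR's quasi-likelihood test with Benjamini-Hochberg adjustment, at an adjusted p below 0.05. The fit averages regions on the log scale after TMM scaling, which the CPM do not include. Its log2 fold changes can therefore differ from the ratio of the CPM means printed beside them. Pfkm, Pfkp, Tpi1 and Mdh1 passed in at least 1 comparison, which is 4 of the 29 genes (13.8%), against 26.9% of all tested genes. Without section as a block in the model, 0 passed. The members had 8 calls in 319 pairs of a gene and a comparison (2.51%), against 5.08% of the pairs of all tested genes. Of the 8 calls, 6 belonged to phosphofructokinase, the enzyme of the committed and most regulated step of glycolysis. Its 3 genes encode the muscle subunit (Pfkm), the platelet subunit (Pfkp) and the liver subunit (Pfkl), which assemble into mixed tetramers in brain.

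Pfkm (ENSMUSG00000033065) lies on the plus strand at chr15:98092589-98132451 and Pfkp (ENSMUSG00000021196) on the minus strand at chr13:6579768-6648777 of mm10. Their levels went opposite ways in the glomerular layer, so their promoters are shown. RefSeq (GRCm38.p6) gives 4 start sites for Pfkm and 1 for Pfkp. The windows run 250 bases before to 50 after the start, and capitals mark ACGTG, the core of the hypoxia response element, and the GC box GGGCGG, each searched on both strands with overlapping matches counted on each strand. The first is the outermost Pfkm start (chr15:98092339-98092638, plus strand), the second the next one inward (chr15:98108221-98108520, plus strand), and the last is Pfkp (chr13:6648722-6649021, minus strand).
Pfkm, outermost start: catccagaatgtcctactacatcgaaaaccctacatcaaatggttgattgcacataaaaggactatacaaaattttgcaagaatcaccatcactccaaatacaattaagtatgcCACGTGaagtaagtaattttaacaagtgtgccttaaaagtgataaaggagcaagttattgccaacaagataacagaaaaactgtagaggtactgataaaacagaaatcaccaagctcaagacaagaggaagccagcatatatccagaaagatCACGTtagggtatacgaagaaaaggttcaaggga
Pfkm, next start: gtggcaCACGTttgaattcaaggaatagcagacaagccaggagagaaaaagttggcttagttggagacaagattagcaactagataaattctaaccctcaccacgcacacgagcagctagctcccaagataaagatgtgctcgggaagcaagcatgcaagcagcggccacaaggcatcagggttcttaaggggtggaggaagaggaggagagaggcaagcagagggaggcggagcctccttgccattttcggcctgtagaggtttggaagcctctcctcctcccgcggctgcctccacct
Pfkp: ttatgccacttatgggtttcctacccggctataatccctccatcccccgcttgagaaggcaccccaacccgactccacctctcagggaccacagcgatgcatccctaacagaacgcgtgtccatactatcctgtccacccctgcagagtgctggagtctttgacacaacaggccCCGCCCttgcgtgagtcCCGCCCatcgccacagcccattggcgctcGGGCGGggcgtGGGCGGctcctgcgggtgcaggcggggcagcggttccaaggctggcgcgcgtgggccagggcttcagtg
The outermost Pfkm window holds 3 matches to ACGTG and 0 GC boxes, and the next holds 1 and 0. The Pfkp window holds 0 matches to ACGTG and 4 GC boxes, and its GC content is 64.7% against 36.7% and 53.7% in these Pfkm windows. The other 2 Pfkm windows hold 0 matches to either motif and have a GC content of 59% and 53%. Promoters were found for 37 of the 40 members. ACGTG occurred in 22 of their 52 promoters (42.3%), against 19.6% of 32851 promoters of all genes, and the GC box in 29 of 52 (55.8%), against 35.7%. These matches are descriptions of letters. Which start sites were used in the bulb was not measured.

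In the glomerular layer, where olfactory nerve fibres meet the dendrites of mitral and tufted cells, Pfkm was higher and Pfkp lower than in the other regions. Pfkm had 265, 285 and 189 CPM in the glomerular layer of sections 1, 2 and 3, against 138, 132 and 180.0 CPM in the mean of the other regions. The glomerular layer was higher in each section, by a small margin in section 3. The means were 246 ± 50.5 CPM in the glomerular layer and 150.2 ± 26.0 CPM in the other regions (SD, n = 3), and the fit gave a log2 fold change of 1.02 (SE 0.28, edgeR adjusted p = 0.00649). Pfkp had 367, 172 and 197 CPM in the glomerular layer, against 673, 398 and 412 CPM in the other regions. The glomerular layer was the lower one in each section. The means were 245 ± 106 CPM in the glomerular layer and 494 ± 155 CPM in the other regions, with a log2 fold change of -0.77 (SE 0.23, edgeR adjusted p = 0.0124).

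These were 2 of 29 members called in the glomerular layer, against 10.9% of all tested genes. The median log2 fold change was 0.18 over the members and 0.13 over all tested genes. Without section 2 neither call held, with adjusted p = 0.518 for Pfkm (0.00255 to 0.518 over 11 alternatives) and 0.281 for Pfkp (1.19e-05 to 0.596), and without section 1 or section 3 Pfkp had adjusted p = 0.192 and 0.0603. Without the rostral migratory system, where Pfkm has 1 count, its log2 fold change was 0.72 with adjusted p = 0.0364. In the glomerular layer 4 of 5 tested mitral and tufted cell markers were higher, and of 8 granule cell markers 1 was higher and 2 were lower. The summed granule cell markers there ranged between 4144 and 5321 CPM, and their part in the Pfkp result was not tested.

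Toward the dendrites and cell bodies of the output neurons, Pfkm stayed high. In the external plexiform layer, which holds dendrites of mitral and tufted cells, Pfkm had 179, 203 and 263 CPM in sections 1, 2 and 3, against 149, 142 and 171 CPM in the other regions. The layer was higher in each section, with 215 ± 43.6 CPM against 154 ± 14.8 CPM in the other regions (SD, n = 3), a log2 fold change of 0.88 (SE 0.28) and an edgeR adjusted p of 0.0193. In the mitral layer, the thin row of mitral cell bodies, Pfkm had 190.3, 339.8 and 312 CPM from 3, 12 and 10 counts. Against the other regions the mitral layer's log2 fold change was 1.17 with an edgeR adjusted p of 0.118, which does not pass.

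Both layers were also set against the granule cell layers, which are packed with inhibitory interneurons. The external plexiform layer, at the 179, 203 and 263 CPM above, was higher in each section than the mean of both granule cell layers, at 151, 57.7 and 106 CPM, with a log2 fold change of 1.56 (SE 0.43, edgeR adjusted p = 0.00317). The mitral layer was also higher in each section, with 281 ± 79.6 CPM against 105 ± 46.4 CPM in the granule cell layers, a log2 fold change of 1.82 (SE 0.52) and an edgeR adjusted p of 0.0282. The external granule cell layer entered these comparisons with only 2, 0 and 1 counts of Pfkm in sections 1, 2 and 3. The 0 of section 2 is out of 21210 counts, which allows a level of up to 141 CPM. Against the other regions, Pfkm had a log2 fold change of -1.64 in the external granule cell layer (edgeR adjusted p = 0.438). In the internal granule cell layer it was -0.12 (edgeR adjusted p = 0.949). Pfkm was 1 of 29 members called in each comparison, against 14.7% of all tested genes for the external plexiform layer and 2.05% for the mitral layer.

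Leaving out section 2 or section 3 ended the Pfkm calls of these layers. The call in the external plexiform layer against the other regions held in 5 of 11 alternatives. It also ended without the rostral migratory system, with a log2 fold change of 0.61 (edgeR adjusted p = 0.0994). With library sizes alone the edgeR adjusted p was 0.107, and DESeq2 gave 0.120. Without section 1 the log2 fold changes were larger, at 1.56 in the external plexiform layer against the other regions, 2.18 in that layer against the granule cell layers and 2.54 in the mitral layer against them. Without section 2 the adjusted p was 0.249 in the external plexiform layer against the other regions, 0.151 in that layer against the granule cell layers and 0.568 in the mitral layer against them. Without section 3 the values were 0.283, 0.122 and 0.264, and over all 11 alternatives they ranged between 0.00353 and 0.313, 0.00139 and 0.151, and 0.0115 and 0.568. Of the tested markers of mitral and tufted cells, 5 of 5 were higher in both layers in each of these comparisons. Astrocyte markers were higher too in both comparisons of the external plexiform layer (8 of 9 tested), and 0 of 9 in those of the mitral layer. The 8 mitral and tufted cell markers summed to 5035, 2014 and 2171 CPM in the external plexiform layer of sections 1, 2 and 3. Their sum was highest in section 1, which differed from the others over all genes. Pfkm was lowest in that layer of section 1, from 13 counts. The same markers summed to between 2775 and 4504 CPM in the mitral layer, against 458 to 849 CPM in the external and 643 to 953 CPM in the internal granule cell layer. Slc17a6 was at 0 in both granule cell layers, and Tbx21 and Tbr1 in the external one. Their part in the Pfkm result was not tested.

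Pfkp had its highest mean in the internal granule cell layer. It had 856, 627 and 489.9 CPM there in sections 1, 2 and 3, against 612, 341 and 375 CPM in the other regions. Each section had the layer above the other regions, with means of 658 ± 185 and 443 ± 147 CPM (SD, n = 3), a log2 fold change of 0.71 (SE 0.21) and an edgeR adjusted p of 0.0249. It was 1 of 29 members called in the internal granule cell layer, against 3.31% of all tested genes. Without section 2 or section 3 the adjusted p was 0.414 and 0.0840, and without the rostral migratory system it was 0.0688 (0.0100 to 0.851 over 11 alternatives). Granule cell markers summed to between 8627 and 9768 CPM in this layer, and their part in the Pfkp result was not tested. Exons of Pfkp share 748 bases with Pitrm1 on the opposite strand, which had 69 counts against 613 for Pfkp, and those of Pfkm share 18 bases with Senp1. No source used here says whether counting used the strand.

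Set against each other, Pfkm took its largest mean share of both genes' counts in the glomerular layer. There Pfkm was 41.9%, 62.3% and 49.0% of Pfkm and Pfkp together in sections 1, 2 and 3, a mean of 51.1 ± 10.3%. In section 3 the mitral (55.6%), internal plexiform (54.5%) and external plexiform (50.8%) layers lay above it. The mean share was 40.5 ± 14.2% in the mitral layer, 35.4 ± 14.9% in the external and 28.5 ± 22.8% in the internal plexiform layer. It was 27.3 ± 15.2% in the olfactory nerve layer and 26.2 ± 6.85% in the ependymal cell zone. The internal granule cell layer had 17.8 ± 7.17% and the external one 8.89 ± 10.2%, the last from 3 counts of Pfkm. Neighbours in this order overlapped between sections, while the glomerular layer lay above the internal granule cell layer in every section, where the shares were 12.0%, 15.6% and 25.8%. This ratio was formed after the separate values were seen and carries no test.

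**Figure D3:**
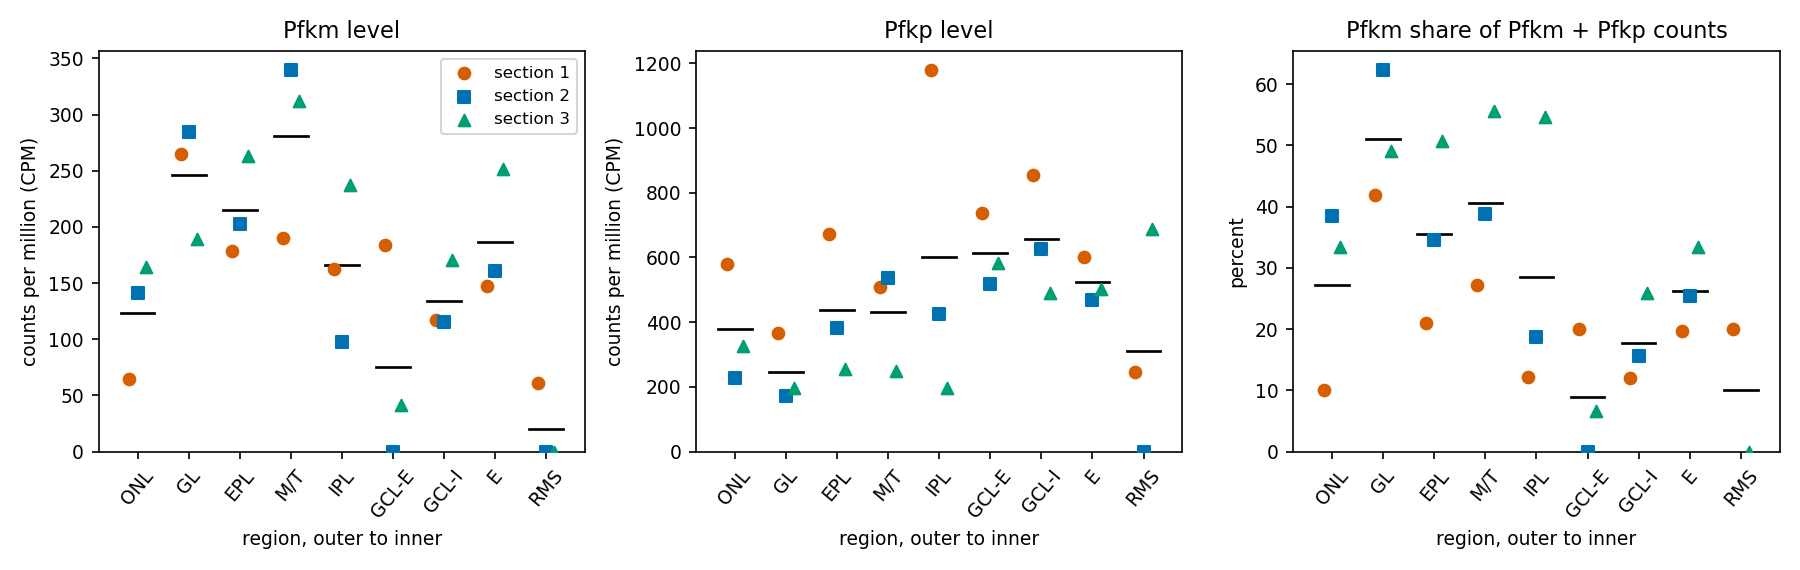
The panels show Pfkm (CPM), Pfkp (CPM) and the share of Pfkm in the counts of both (percent) in each region, from outside to inside, with 1 marker per section and a line at the mean. Pfkm is high in the glomerular (GL), external plexiform (EPL) and mitral (M/T) layers and Pfkp is low in the glomerular layer and high in the internal granule cell layer (GCL-I). The mean share is highest in GL at 51.1%, while in section 3 that of M/T is higher.

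Tpi1, triose phosphate isomerase, was the other member called in the external plexiform layer, which makes 2 of 29 members against 12.1% of all tested genes. It had 633, 235 and 295 CPM in the layer of sections 1, 2 and 3, against 459, 194 and 386 CPM in the other regions. The layer was higher in sections 1 and 2 and lower in section 3, where the other regions include 1374 CPM in the rostral migratory system from 2 counts. The log2 fold change was 0.56 (SE 0.20, edgeR adjusted p = 0.0411), and without section 1, 2 or 3 the adjusted p was 0.379, 0.245 and 0.121 (0.00463 to 0.798 over 11 alternatives). Members had a median log2 fold change of 0.21 in this layer and all tested genes had 0.11. Idh3b, a subunit of NAD-dependent isocitrate dehydrogenase, had a log2 fold change of 0.61 there with adjusted p = 0.0509, which does not pass.

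In the rostral migratory system, the stream of newborn neurons at the core of the bulb, Mdh1 was lower than elsewhere. Mdh1 encodes the cytosolic malate dehydrogenase of the malate-aspartate shuttle. It had 553, 194 and 0 CPM there in sections 1, 2 and 3, from 9, 1 and 0 counts, against 1218, 794 and 828 CPM in the other regions. The region was the lower one in each section, but the 0 in section 3 is out of 1456 counts, which allows a level of up to 2060 CPM. The log2 fold change was -1.61 (SE 0.44, edgeR adjusted p = 0.0300), in a region where the median was -1.002 over members and -0.44 over all tested genes. The fit's TMM scaling factors were 1.43 and 3.39 for this region in sections 2 and 3, against 0.79 to 1.10 for the other sums. With library sizes alone, which leaves these factors out, the medians were -0.71 over members and -0.04 over all tested genes. Mdh1 was 1 of 29 members called, against 0.902% of all tested genes. With sections 1, 2 or 3 left out the adjusted p was 0.0549, 0.402 and 0.150, with a log2 fold change of -3.41 without section 1, and with library sizes alone it was 0.185 (0.000393 to 0.402 over 10 alternatives). Oligodendrocyte markers summed to between 2906 and 9764 CPM in the region, with Mog at 0, against 2647 to 4655 CPM in the ependymal cell zone. Of 4 tested, 1 was higher in the region. Of 3 tested neuroblast markers, 0 were higher there. The 6 listed neuroblast markers summed to between 687 and 1356 CPM, against 958 to 1290 CPM in the external granule cell layer. The part of either list in the Mdh1 result was not tested. Exons of Mdh1 share 52 bases with Wdpcp on the opposite strand.

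**Figure D4:**
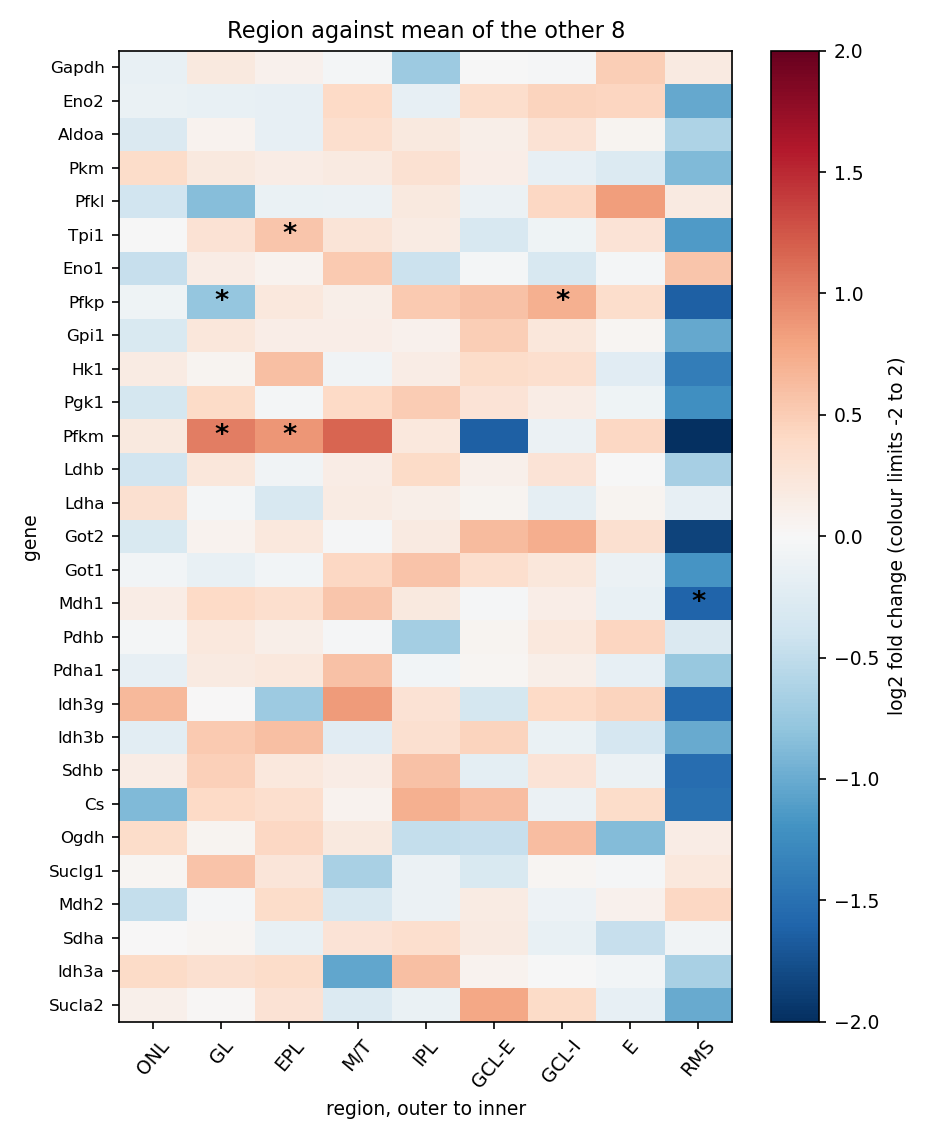
Rows are the 29 tested members by role and columns the 9 regions from outside to inside, and colour gives the log2 fold change of the region against the mean of the other 8. Asterisks mark the 6 values with an adjusted p below 0.05, which belong to Pfkm, Pfkp, Tpi1 and Mdh1, and the column of the rostral migratory system (RMS) is mostly blue, with a median of -1.002. With library sizes alone that median was -0.71.

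No member was called in 5 regions. With 0 of 29 members called, the share of all tested genes called was 6.66% in the olfactory nerve layer, 2.2% in the mitral layer, 0% in the internal plexiform layer, 0.401% in the external granule cell layer and 2.61% in the ependymal cell zone. An unadjusted p below 0.05 in edgeR was reached by 0, 3, 1, 1 and 5 members in that order of regions, against 16.9%, 13.9%, 7.01%, 9.97% and 15.5% of all tested genes. DESeq2 called 1 member, Mdh1, in the mitral layer and 0 in the other 4. Of all 1996 genes it called 43 higher and 4 lower in the mitral layer. In the mitral layer Mdh1 had a log2 fold change of 0.65 and an adjusted p of 0.0208 in DESeq2. The members' median log2 fold change was -0.05, 0.15, 0.19, 0.10 and 0.00 in these regions, against 0.08, 0.06, 0.07, 0.03 and 0.10 over all tested genes.

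Aldoa and Ldhb, the members with most counts (2198 and 1355), did not pass in any comparison in edgeR with TMM scaling, the filter and all sections and regions, and their levels are given by section. Aldoa in section 1 ranged between 2211 CPM in the rostral migratory system and 3662 CPM in the internal plexiform layer. In section 2 it ranged between 679 CPM in the olfactory nerve layer and 1452 CPM in the internal granule cell layer, and in section 3 between 686 CPM in the external plexiform layer and 2060 CPM in the rostral migratory system, the last from 3 counts. Over the 9 comparisons with the other regions its log2 fold change lay between -0.62 in the rostral migratory system and 0.33 in the mitral layer. Against the granule cell layers, Aldoa had a log2 fold change of -0.33 in the external plexiform layer (adjusted p = 0.184) and 0.11 in the mitral layer (adjusted p = 0.899).

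Ldhb, the lactate dehydrogenase subunit of oxidative tissue, ranged between 921 CPM in the rostral migratory system and 1935 CPM in the external granule cell layer of section 1. The range was 467 CPM in the olfactory nerve layer to 1142 CPM in the internal plexiform layer in section 2, and 601 CPM in the olfactory nerve layer to 1374 CPM in the rostral migratory system in section 3. Its log2 fold change lay between -0.66 in the rostral migratory system and 0.38 in the internal plexiform layer over the 9 comparisons, and was -0.23 and -0.03 in the external plexiform and mitral layers against the granule cell layers, with no adjusted p below 0.05. The olfactory nerve layer had the lowest Ldhb level in sections 2 and 3, with an edgeR adjusted p of 0.343, or 0.0476 with library sizes alone.

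By role, the glucose transporters were too sparse for a test. Slc2a1, the transporter of endothelium and glia, had 114 counts and Slc2a3, that of neurons, 119, and Slc2a3 was 51.0 ± 1.26% of both. Hk1, the hexokinase of brain, had 224 counts against 4 for Hk2, the hexokinase of muscle and fat. By the mean over sections, the summed glycolytic enzymes were highest in the mitral layer, at 11037, 5097 and 4873 CPM in sections 1, 2 and 3, and lowest in the rostral migratory system, at 7000.3, 2518 and 4808 CPM. The order differed between sections: in section 1 the external granule cell layer was highest, at 11333 CPM, and in section 3 the olfactory nerve layer was lowest, at 3369 CPM, while the value of the rostral migratory system came from 7 counts. Sections differed more than regions did: in section 1 every region lay at or above 7000.3 CPM, and in sections 2 and 3 no region lay above 5097 CPM.

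Outside the rostral migratory system, where counts were few, the mean of Gpi1, glucose phosphate isomerase, ranged between 342 CPM in the olfactory nerve layer and 560.0 CPM in the external granule cell layer. Pfkl ranged between 57.3 CPM in the glomerular layer and 167 CPM in the ependymal cell zone. Eno2 ranged between 673 CPM in the external plexiform layer and 1063 CPM in the external granule cell layer, Pkm between 816 CPM in the ependymal cell zone and 1212 CPM in the internal plexiform layer, and Gapdh between 224 CPM in the internal plexiform layer and 454 CPM in the ependymal cell zone. These are means over sections, and the order of regions differed between sections. Pkm in the internal plexiform layer had 2319, 881 and 435 CPM in sections 1, 2 and 3. The last was its lowest level in section 3. Eno2 in the external granule cell layer had 2119, 613 and 458 CPM, and in section 3 the mitral layer was higher, at 812 CPM. None of these 5 genes passed in any of the 11 comparisons in edgeR with TMM scaling, the filter and all sections and regions. Eno2 came nearest, with a log2 fold change of -0.51 (SE 0.20, edgeR adjusted p = 0.0745) in the external plexiform layer against the granule cell layers. With library sizes alone, Eno2 (-0.71, adjusted p = 0.00391), Aldoa (-0.54, adjusted p = 0.00465) and Pfkp (-0.61, adjusted p = 0.0385) were lower in that comparison, and Eno2 and Aldoa also passed with RLE scaling and with DESeq2. Without section 1 Aldoa (-0.57, adjusted p = 0.0143) and Eno2 (-0.70, adjusted p = 0.0467) passed there too, and without the rostral migratory system Eno2 did (-0.51, adjusted p = 0.0443).

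For genes that encode forms of 1 enzyme, the share of each was compared between regions. Ldhb was 83.1 ± 2.20% of Ldhb and Ldha counts over whole sections, between 74.2% in the olfactory nerve layer and 86.4% in the internal granule cell layer outside the rostral migratory system. Eno2 was 75.1 ± 6.72% of Eno2 and Eno1 counts, between 69.9% in the external plexiform layer and 83.4% in the internal granule cell layer. A permutation test of the log2 ratio over 8 regions, with region labels permuted within sections 100000 times, gave an adjusted p of 0.702 for Ldhb over Ldha, for Eno2 over Eno1 and for Slc2a3 over Slc2a1 (5 pairs tested). For Hk1 over Hk2 it gave an adjusted p of 0.0490, but with 4 counts of Hk2 the ratio follows the counts of Hk1 and shows no difference between the genes. The remaining pair, Aldoc over Aldoa, had an adjusted p of 0.0125. It was 0.173 with the rostral migratory system included and 0.0251, 0.143 and 0.485 without sections 1, 2 and 3.

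No gene of pyruvate dehydrogenase or the citric acid cycle passed in edgeR with the filter and all sections and regions. Together the 19 genes of pyruvate dehydrogenase and the citric acid cycle had their highest mean in the internal granule cell layer, at 3483, 3679 and 3110 CPM in sections 1, 2 and 3, and their lowest outside the rostral migratory system in the olfactory nerve layer, at 3092, 2335 and 3005 CPM. The internal granule cell layer was the higher one in each section, but both layers were picked by their means. The order differed between sections: in section 1 the glomerular layer was highest, at 3996 CPM. In section 3 the external granule cell layer was highest, at 3166 CPM. The mitral layer was lowest there outside the rostral migratory system, at 2749 CPM. Of the 12 of these genes that were tested, 0 passed in any of the 11 comparisons in edgeR or DESeq2, and 9 of 132 pairs of a gene and a comparison had an unadjusted p below 0.05 in edgeR (6.82%), against 16.2% of the pairs of all tested genes. Without the filter Idh3b passed in the external plexiform layer (log2 fold change 0.94, adjusted p = 0.00760), and without the rostral migratory system Idh3g did, with a log2 fold change of -0.95 and an adjusted p of 0.0374. Cs, citrate synthase, had 74.1 ± 10.3 CPM in the olfactory nerve layer and 253 ± 99.0 CPM in the internal plexiform layer, and its log2 fold change in the olfactory nerve layer was -0.89 (SE 0.47, edgeR adjusted p = 0.322). Ogdh, of the oxoglutarate dehydrogenase complex, had 100.4 ± 45.0 CPM in the ependymal cell zone and 274 ± 37.1 CPM in the internal granule cell layer, with a log2 fold change of -0.87 in the ependymal cell zone (SE 0.33, edgeR adjusted p = 0.143).

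Idh3a, the catalytic subunit of NAD-dependent isocitrate dehydrogenase, ranged between 185 CPM in the mitral layer and 387 CPM in the internal plexiform layer, and Sdha, the flavoprotein of succinate dehydrogenase, between 254 CPM in the ependymal cell zone and 406 CPM in the mitral layer. Pdha1 and Pdhb, of the first enzyme of the pyruvate dehydrogenase complex, Mdh2, Sdhb, Suclg1, Sucla2, Idh3b and Idh3g stayed above an adjusted p of 0.05 in all 11 comparisons in edgeR with the filter and all sections and regions. Dlat, Dld, Idh2, Dlst, Sdhc, Sdhd and Fh1, with 89 to 171 counts each, did not pass the filter, nor did Pgam1. Among the shuttle genes, Got2 had a log2 fold change of 0.73 in the internal granule cell layer (SE 0.25, edgeR adjusted p = 0.0780), and the cytosolic transaminase Got1 had an adjusted p of at least 0.536 outside the rostral migratory system.

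**Figure D5:**
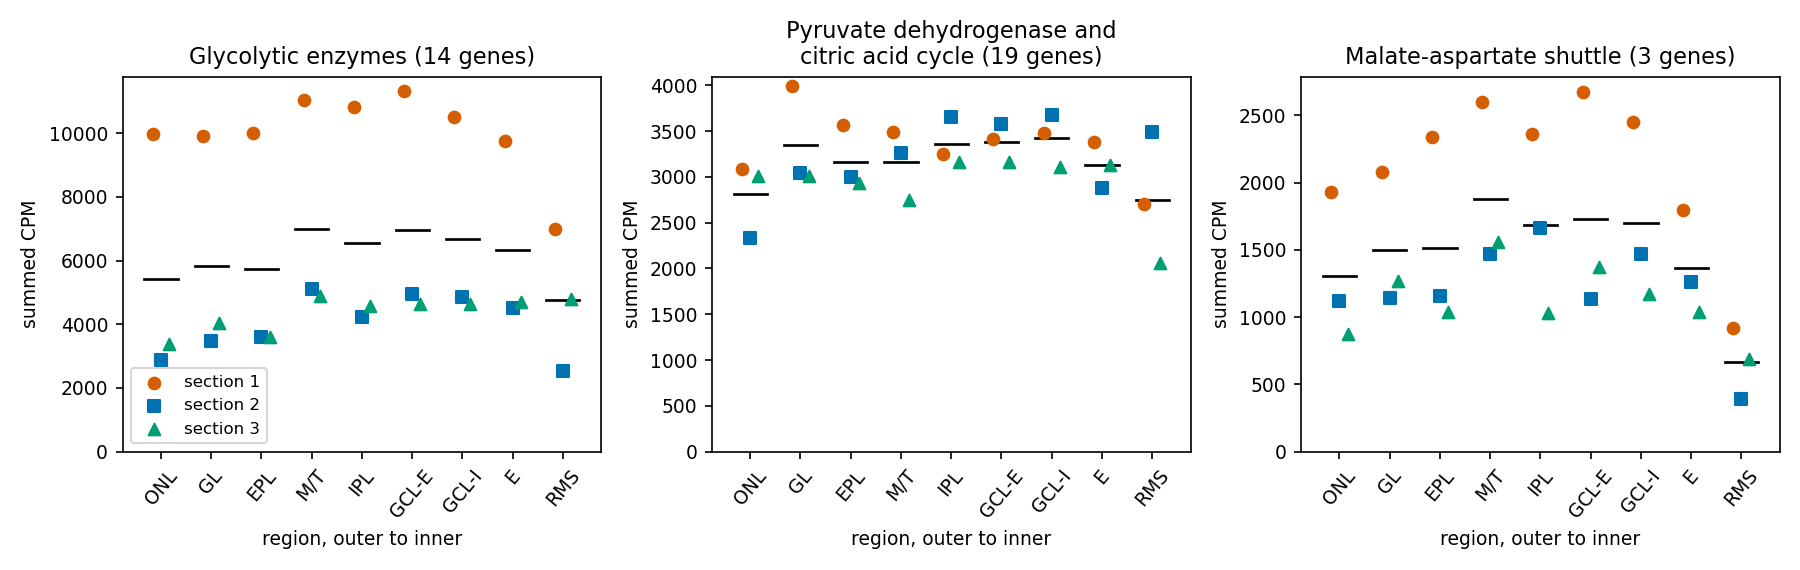
Summed CPM of the glycolytic enzymes, of pyruvate dehydrogenase and the citric acid cycle, and of the malate-aspartate shuttle in each region from outside to inside, with 1 marker per section and a line at the mean. Section 1 lies above the others in each region for glycolysis, from 7000.3 CPM in the rostral migratory system upward, whereas the sections intermingle for the 19 mitochondrial genes.

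Of 57 further genes of these pathways, 56 had counts and 11 passed the filter. Of these, 1 was higher in the olfactory nerve layer, 1 in the glomerular layer, 2 in the external plexiform layer and 3 in the external plexiform layer against the granule cell layers, and 0 were lower in any comparison. Of all tested genes, 6.66%, 10.9%, 12.1% and 14.7% were called in these comparisons in that order, in either direction. At least 1 call in any comparison was reached by Aldoc, Glud1 and Gpd2 of the 11, and by 26.9% of all tested genes. Aldoc, the aldolase known from astrocytes, accounts for 4 of these 7 calls. In the external plexiform layer Aldoc had 1197, 1056 and 942 CPM in sections 1, 2 and 3, against 930.0, 775 and 560.1 CPM in the other regions. The layer was higher in each section, with a log2 fold change of 0.68 (SE 0.14, edgeR adjusted p = 3.62e-05) against the other regions and 0.90 (SE 0.19, adjusted p = 8.78e-05) against the granule cell layers. It was also higher in the olfactory nerve layer (log2 fold change 0.56, adjusted p = 0.0389) and the glomerular layer (0.46, adjusted p = 0.0255). Leaving out section 2 or 3 ended the call in the olfactory nerve layer, at adjusted p = 0.770 and 0.109, and leaving out section 1, 2 or 3 that in the glomerular layer, at 0.126, 0.132 and 0.105. Without section 2 the call against the granule cell layers also ended, at 0.0950.

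Aldoc was 47.4 ± 15.6% of Aldoc and Aldoa counts in the external plexiform layer, 45.8 ± 17.5% in the olfactory nerve layer, 40.5 ± 8.42% in the glomerular layer, 28.0 ± 1.38% in the external and 26.8 ± 7.19% in the internal granule cell layer and 24.6 ± 11.5% in the mitral layer. Section 1 had the lowest share in each of these 6 layers. Glud1, glutamate dehydrogenase, which is abundant in astrocytes, had 330.2, 465 and 503 CPM in the external plexiform layer, against 241, 436 and 400.4 CPM in the other regions, with a log2 fold change of 0.55 (SE 0.18, edgeR adjusted p = 0.0196). Against the granule cell layers its log2 fold change was 0.82 (SE 0.25, adjusted p = 0.0118). Without section 2 these adjusted p-values became 0.105 and 0.262, without section 3 the first became 0.2504, and without section 1 the second became 0.0506. They were 0.268 and 0.113 with DESeq2 and 0.224 and 0.0853 with library sizes alone. Gpd2, the mitochondrial enzyme of the glycerol phosphate shuttle, had 138, 148 and 255 CPM in the external plexiform layer against 104, 112 and 53.3 CPM in the granule cell layers, with a log2 fold change of 1.29 (SE 0.43, edgeR adjusted p = 0.0237, and 0.116 with DESeq2). Without section 2 the log2 fold change of Gpd2 was 1.99, and with library sizes alone its adjusted p was 0.0706.

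Astrocyte markers were higher in the 3 layers where Aldoc was called, and Glud1 was called in the external plexiform layer alone. Glud1 had a log2 fold change of -0.26 in the olfactory nerve layer (edgeR adjusted p = 0.693) and 0.40 in the glomerular layer (edgeR adjusted p = 0.173). Between whole sections the order differed: Aldoc had 1002, 873 and 737 CPM in sections 1, 2 and 3. The 10 astrocyte markers summed to 4796, 11056 and 10551 CPM. Of 9 tested astrocyte markers, 5 were higher in the olfactory nerve layer, 6 in the glomerular layer and 8 in the external plexiform layer. All 10 listed genes, each with counts in these layers, together summed to between 6135 and 15359 CPM in the external plexiform layer, against 3639 to 6539 CPM in the internal and 3593 to 6742 CPM in the external granule cell layer. The part of these markers in the results for Aldoc and Glud1 was not tested.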

How the data were processed

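Poly(A) RNA was measured in 3 sections, each 1 sample. The authors deposited whole-number counts per spot and gene, not normalized, and a table that names each spot's region. The submitters' processing notes give mm10 as the build. The aligner, counter, strand use and the drawing of regions are not given in the sources used here. Pixel positions tied 100% of entries to a spot of the region table, and the counts of each region in each section were added up. Counts without a gene name (0.0325%, 0.0764% and 0.0801% of each section) and spots of unknown region were left out of the tests.

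The 27 sums were tested with the quasi-likelihood method of edgeR 4.0.16 in R 4.3.3. The model held region and section, scaling was TMM, and filterByExpr used a minimum count of 10. Section is a block because regions of 1 section share its tissue: once region means were removed, the mean Pearson's r was 0.25 over 108 pairs of sums from the same section and -0.11 over pairs from different sections. DESeq2 1.42.0, other scalings, other filters, no section block, each section left out, a fit without the rostral migratory system and a join by spot name were alternatives. Adding copies to their gene was an alternative chosen after seeing the data. Pair ratios used a pseudocount of 0.5 counts and numpy 2.4.6. Copies were annotated transcripts (GENCODE M21) at least 95% identical over at least 100 bases and 50% of their length by blastn 2.17.0.

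The pipeline was run on simulated data with known changes, and the share of them recovered is not given here. The members and lists were chosen with earlier results of these data known. Named members are those past the threshold and, where fewer than 2 passed, the 2 with most counts. The others are given by range and count, and values of members that did not pass beyond those were chosen after they were seen. The floor for a count of 0 is 3 counts, for counting error only.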

Additional observations from a re-analysis of the deposited data

Results flagged for a closer look

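Some spots under tissue carried no region name and entered no comparison. In section 2 they held 63 counts of the 40 genes out of 5706, a level of 11041 CPM (exact 95% binomial interval 8494 to 14104), against 9197 CPM in the named regions. In section 3 they held 25 counts out of 3442, a level of 7263 CPM (4706 to 10703), against 9319 CPM in the named regions, which lies inside the interval in both sections. In section 1 they held 0 counts out of 42. These intervals cover counting error only.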

How the results depend on the processing

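No fold change of a gene that passed in the report changed sign under an alternative. Without section 1 the summed glycolytic level of the external plexiform layer was 3599 CPM, against 5738 CPM with all sections. Members called depended on the setting. Without the section block, 0 members were called in each comparison, against 2 in the glomerular layer, 2 in the external plexiform layer and 1 each in the internal granule cell layer, the rostral migratory system and both comparisons with the granule cell layers. Of all 1996 genes, without the block, 13 were higher and 0 lower in the glomerular layer and 4 and 0 in the external plexiform layer. The numbers were 0 and 0 in the internal granule cell layer and 0 and 1 in the rostral migratory system. Against the granule cell layers they were 9 and 1 in the external plexiform and 7 and 0 in the mitral layer. Leaving out each section in turn gave 0 to 2 member calls in the glomerular layer, 0 to 1 in the external plexiform layer, 0 to 1 in the mitral layer, 0 to 1 in the internal granule cell layer, 0 in the rostral migratory system, and 0 to 3 and 0 to 1 in the external plexiform and mitral layers against the granule cell layers. The 0s came without section 2, which holds most counts, and, save for the glomerular layer (1, Pfkm), without section 3, and in the rostral migratory system also without section 1. Over all genes in these fits, 51 to 183 were higher and 5 to 20 lower in the glomerular layer. The ranges were 98 to 225 and 3 to 16 in the external plexiform and 15 to 45 and 1 to 4 in the mitral layer. They were 7 to 60 and 1 to 12 in the internal granule cell layer. Against the granule cell layers they were 99 to 210 and 23 to 118, and 13 to 23 and 0 to 9. These fits tested 1768 to 2143 genes. Library sizes alone gave 1 member in the olfactory nerve layer (Ldhb, lower), 0 in the external plexiform layer, 2 in the internal granule cell layer, 0 in the rostral migratory system and 4 in the external plexiform layer against the granule cell layers, 1 higher and 3 lower, where the members' median log2 fold change was -0.15 in place of 0.07. In the same order, higher and lower calls over all 1996 genes were 83 and 61, 120 and 74, 69 and 26, and 9 and 1. For the last comparison they were 149 and 204. RLE scaling gave 1, 1, 0 and 3 members in the external plexiform layer, the mitral layer, the rostral migratory system and the external plexiform layer against the granule cell layers. In the same order, higher and lower calls over all 1996 genes were 188 and 40, 51 and 5, 5 and 3, and 188 and 123. DESeq2 gave 0 members in the external plexiform layer, 1 in the mitral layer and 3 in the external plexiform layer against the granule cell layers. Over all 1996 genes its calls were 115 and 18, 43 and 4, and 137 and 93. With no filter there were 6 in the external plexiform layer, 0 in the internal granule cell layer, 1 in the ependymal cell zone, 3 in the rostral migratory system, 2 in the external plexiform and 0 in the mitral layer against the granule cell layers. Without the rostral migratory system 1 member was called in the external plexiform layer (Idh3g, lower) and 0 in the internal granule cell layer. In the external plexiform layer against the granule cell layers 2 were. In the same order, higher and lower calls over all 1996 genes were 190 and 48, 58 and 50, and 220 and 105. Pfkm and Tpi1 did not pass in the external plexiform layer in that fit, at edgeR adjusted p = 0.0994 and 0.138. The join by spot name gave 0 members in the mitral layer against the granule cell layers, where 27 of all 2007 genes were higher and 4 lower. The cause was not tested.

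Scaling moved the split of all called genes. In the glomerular layer 175 genes were higher and 43 lower, against 97 and 86 with library sizes alone, where the median of all genes was -0.03 in place of 0.13. With library sizes alone the split was 120 and 74 in place of 215 and 27 in the external plexiform layer, 83 and 61 in place of 119 and 14 in the olfactory nerve layer, 13 and 9 in place of 3 and 5 in the external granule cell layer, 9 and 1 in place of 5 and 13 in the rostral migratory system, and 149 and 204 in place of 205 and 88 in the external plexiform layer against the granule cell layers. With RLE scaling it was 22 and 23 in place of 43 and 9 in the ependymal cell zone, 47 and 30 in place of 48 and 18 in the internal and 10 and 5 in place of 3 and 5 in the external granule cell layer, and 5 and 3 in place of 5 and 13 in the rostral migratory system. For Aldoc over Aldoa the variance of the log2 ratio between regions was 0.28, 0.27 with all 9 regions, where it missed the threshold, and 0.25 to 0.38 with a section left out. For Hk1 over Hk2 it was 0.51, and 0.43 to 0.87 with a section left out, where it missed the threshold each time. In the rostral migratory system, with 1456 counts in section 3, most differences were not detectable at this depth.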
